A study of Mus musculus with 4 samples.

Results

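The granins are 6 genes for soluble proteins of the dense-core secretory granule, Chga, Chgb, Scg2, Scg3, Scg5 and Vgf, chosen by symbol from the 32285 genes in the count matrices of single islet cells of the mouse. They were followed in 4 classes of endocrine barcodes set by the share of hormone UMIs (unique molecular identifiers, each counting 1 captured transcript). They were also followed as possible free RNA in other barcodes, and across the 4 libraries of the study. No granin was used to set a class. Each library came from 300 islets pooled from 2 to 3 female mice on the C57b6/J background, freed by collagenase digestion, cleaned on a Ficoll gradient and picked by hand. Females were WT (CCR2-DTR-/-) or CCR2-DTR+/-, and each genotype was sampled at an age of 1 month and of 6 months, which makes 4 groups with 1 library each. Where 4 values are given in a row, the order is WT then CCR2-DTR at 1 month, followed by WT then CCR2-DTR at 6 months. CCR2-DTR stands for a diphtheria toxin receptor allele named for the chemokine receptor Ccr2, which marks monocytes. All mice, WT littermates included, had received 4 injections of diphtheria toxin, 48 hours apart from postnatal day 2, and chow after weaning at 21 days. The labels pool the animals of a group, so the spread between animals cannot be seen.

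Dense-core granules store peptide hormones until a stimulus releases them. Chromogranin A (Chga), chromogranin B (Chgb) and secretogranin II (Scg2) are acidic proteins that bind calcium, aggregate in the trans-Golgi network with the hormone cargo and are cut into peptides. Secretogranin III (Scg3) binds chromogranin A and the cholesterol-rich granule membrane, Scg5 (7B2) is the chaperone of the prohormone convertase encoded by Pcsk2, and Vgf is the precursor of several secreted peptides. In islets these proteins are carried in the granules of insulin, glucagon, somatostatin and pancreatic polypeptide cells.

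All 6 genes are annotated as protein coding in GENCODE vM21 (GRCm38). Chga lies at chr12:102554969-102565028 (+), Chgb at chr2:132781278-132795079 (+), Scg2 at chr1:79434669-79440120 (−), Scg3 at chr9:75643189-75684056 (−), Scg5 at chr2:113776362-113829121 (−) and Vgf at chr5:137026392-137033351 (+). Scg3 overlaps the gene model Gm37871 on the other strand, and the sources used here do not say whether the authors' counting used strand. The promoters of Chga, Chgb and Scg2 are shown because each has its own order over the classes, with Chga highest in beta, Chgb highest in delta and Scg2 lowest in alpha barcodes. Each window is from the RefSeq promoter table (GRCm38.p6, 5 of 6 members matched, without Vgf), runs 300 bases from 250 before to 50 after the RefSeq start, and is written 5′ to 3′ on the gene's strand. The windows are chr12:102554691-102554990 (+) for Chga, chr2:132781392-132781691 (+) for Chgb and chr1:79439977-79440276 (−) for Scg2. Capitals mark TGACGT or, where it is whole, TGACGTCA, the sequence known as the cAMP response element.
Chga: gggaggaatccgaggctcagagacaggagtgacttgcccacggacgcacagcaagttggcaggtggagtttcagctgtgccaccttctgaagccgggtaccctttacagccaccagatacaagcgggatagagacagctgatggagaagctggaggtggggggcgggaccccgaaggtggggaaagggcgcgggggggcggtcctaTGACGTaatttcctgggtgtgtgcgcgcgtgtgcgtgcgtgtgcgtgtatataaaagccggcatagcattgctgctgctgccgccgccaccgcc
Chgb: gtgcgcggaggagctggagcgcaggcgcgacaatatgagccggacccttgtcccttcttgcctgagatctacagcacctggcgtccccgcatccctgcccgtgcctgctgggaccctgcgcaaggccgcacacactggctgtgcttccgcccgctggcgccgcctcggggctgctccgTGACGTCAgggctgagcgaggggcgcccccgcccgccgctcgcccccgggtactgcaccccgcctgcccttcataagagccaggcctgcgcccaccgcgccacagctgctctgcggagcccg
Scg2: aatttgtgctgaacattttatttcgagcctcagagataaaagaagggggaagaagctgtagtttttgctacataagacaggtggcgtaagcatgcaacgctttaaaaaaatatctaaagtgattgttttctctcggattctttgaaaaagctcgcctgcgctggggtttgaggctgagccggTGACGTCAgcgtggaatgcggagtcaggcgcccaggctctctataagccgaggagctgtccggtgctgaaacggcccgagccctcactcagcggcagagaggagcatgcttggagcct

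The search covered TGACGT on both strands. TGACGTCA reads the same on both strands and so holds TGACGT on each. Chga has 1 match whose first base is at −44 from the start, and Chgb and Scg2 have the whole TGACGTCA, with first bases at −72 and −68. Scg5 has TGACGT at −175 and its reverse complement at 40 past the start, and Scg3 has none of these letters in its window. TGACGT on either strand is found in 7.51% of the 32851 promoters in the table, and TGACGTCA in 1.79%. A match is a run of letters, not a measured binding site.

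The libraries held 10433, 12444, 5089 and 7113 barcodes with 60315217 to 121292320 UMIs each. Pairs of libraries shared 6 to 34 barcodes, at most 0.422% of the smaller. Barcodes with over 15% mitochondrial UMIs made up 9.37% to 23.9% of a library and were set aside, as were likely doublets. Of the 3638 to 8726 barcodes kept, the hormone gates placed 73.8%, 72.2%, 51.1% and 58.3% in the same order of libraries, so fewer were placed at 6 months. Beta barcodes (insulin genes at least 20% of UMIs) numbered 3587, 3206, 854 and 1421. Alpha barcodes (Gcg at least 5%) numbered 2277, 2415, 642 and 801, delta barcodes (Sst at least 5%) 276, 349, 188 and 140, and Ppy-rich barcodes (Ppy at least 5%) 303, 236, 176 and 120. Limits on the other hormones left many barcodes past 5% outside these classes. Those outside delta were 453 of 729, 358 of 707, 168 of 356 and 216 of 356. Outside Ppy-rich were 344 of 647, 196 of 432, 154 of 330 and 146 of 266. Outside alpha were 520 of 2797, 379 of 2794, 223 of 865 and 283 of 1084. Of the markers listed for each class, 7 of 7 were highest in beta, 6 of 7 in alpha, 6 of 8 in delta and 5 of 8 in Ppy-rich barcodes. Acinar markers summed to 4.94 to 127 CPM in beta, 11.04 to 176.9 in alpha, 172.5 to 418.5 in delta and 15.9 to 149 in Ppy-rich sums over the 4 libraries, and their part in the class differences was not tested. Macrophage markers summed to 92.0 to 453 CPM in delta sums and at most 163 in the other classes. The 8 neuronal markers summed to at least 164 CPM in beta, 240 to 262 in alpha, 278.0 to 329 in delta and 254 to 309 in Ppy-rich sums.

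UMIs were summed per class and library, which gave 16 sums, and the classes were compared within libraries by edgeR's quasi-likelihood test over 13564 genes with Benjamini-Hochberg adjustment. Levels in the class comparison are adjusted CPM, UMIs put on a common total and scaled by TMM, a method that sets the bulk of genes equal between sums. The scale matters because hormone transcripts take up 48.0% to 54.2% of the UMIs in beta sums but 22.0% to 24.8% in delta sums. With total UMIs as the only scaling, the median gene moved up by 0.45 (alpha against beta), 0.83 (delta against beta), 0.31 (Ppy-rich against beta) and 0.38 (delta against alpha) on the log2 scale. It moved by −0.14 in Ppy-rich against alpha and by −0.52 in Ppy-rich against delta. The test called 6 of 6 granins in alpha against beta and 6 of 6 in delta against alpha, where 63.9% and 41.4% of all genes were called. It called 5 of 6 in delta against beta (all genes 53.5%), 5 of 6 in Ppy-rich against beta (54.0%) and 5 of 6 in Ppy-rich against delta (29.0%). In Ppy-rich against alpha it called 4 of 6, beside 30.9% of all genes. Called genes were common throughout, so the size and order of the differences, more than the calls, set the granins' patterns out. In alpha against beta 2 granins were called higher (all genes 31.7%) and 4 lower (32.2%). Delta against beta had 1 higher (26.1%) and 4 lower (27.3%), and Ppy-rich against beta 2 higher (25.9%) and 3 lower (28%). Delta against alpha had 2 higher (21.1%) and 4 lower (20.4%), Ppy-rich against alpha 2 higher (15.4%) and 2 lower (15.5%), and Ppy-rich against delta 3 higher (14.2%) and 2 lower (14.8%). With total UMIs the counts became 3 and 2 in delta against beta, 3 and 3 in delta against alpha and 1 and 3 in Ppy-rich against delta. Of all genes called with total UMIs in those comparisons 93.3%, 86.9% and 6.33% were higher, a shift in the same direction as that of the granins' counts.

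**Figure D1:**
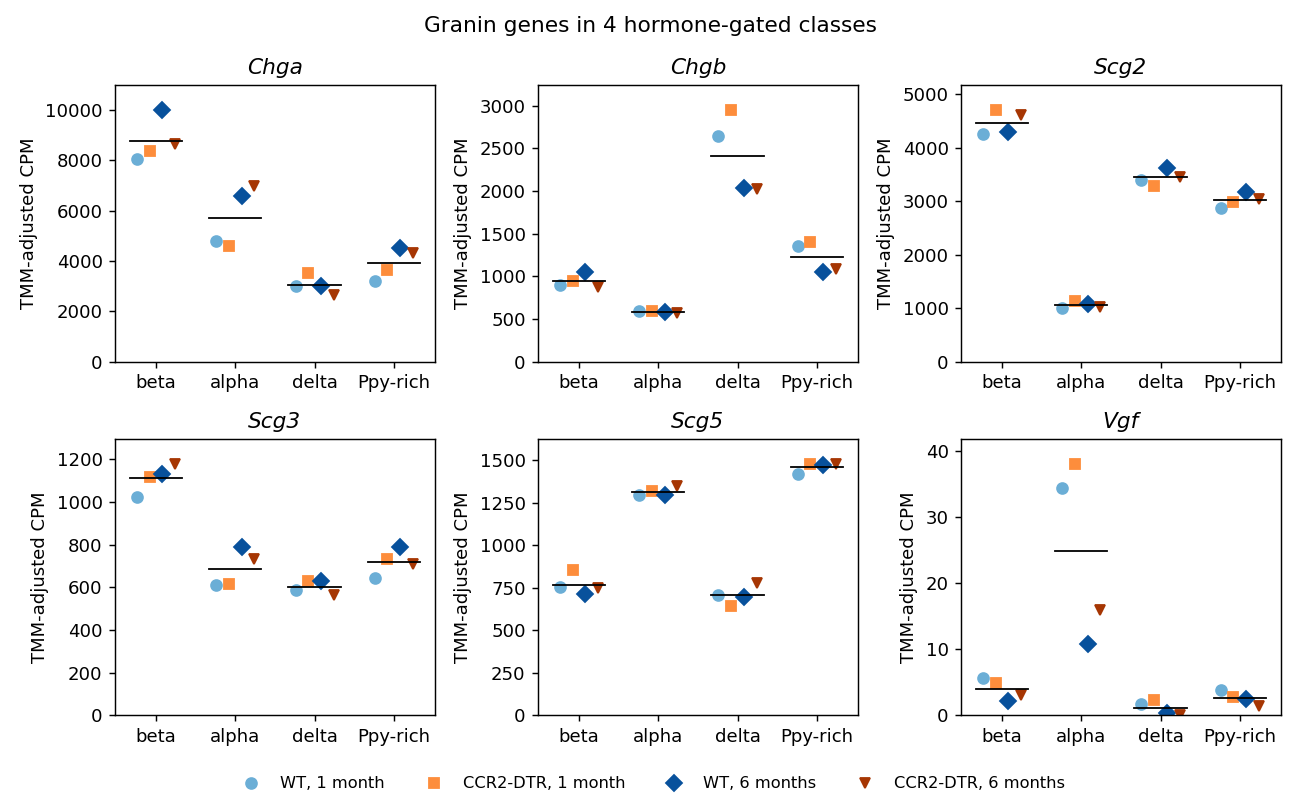
Adjusted CPM (TMM-scaled, linear axis from 0) of the 6 granin genes in 4 hormone-gated classes, 1 point per library and a bar at the mean of the 4 libraries. Chga is highest in beta, Chgb in delta and Scg2 lowest in alpha barcodes, and Vgf in alpha barcodes lies at 34.5 and 38.1 at 1 month and at 10.8 and 16.01 at 6 months.

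Chga, the founding member of the family, was highest in beta barcodes, lower in alpha barcodes and lowest in delta and Ppy-rich barcodes. Its adjusted CPM in beta sums was 8052 in the younger WT library, 8356 in the younger CCR2-DTR library, and 9993 and 8653 in the older pair (mean 8764 ± 856, SD, n = 4 libraries). Alpha sums gave 4780, 4587, 6579 and 6960 in the same order (mean 5726 ± 1217), so all 4 lay under every beta sum and both 6-month values lay above both 1-month values. Delta sums gave 3021, 3532, 3016 and 2656 (mean 3056 ± 360), and Ppy-rich sums gave 3207, 3651, 4505 and 4326 (mean 3922 ± 602). The ranges of those 2 classes overlap. Against beta, Chga was 1.54-fold lower in alpha (log2 −0.62, SE 0.109, adjusted p = 5.395e-05 by edgeR), but with total UMIs as the only scaling this call was lost (log2 −0.18, adjusted p = 0.0977). It was 2.84-fold lower in delta than in beta (log2 −1.51, SE 0.111, adjusted p = 9.955e-10) and 2.25-fold lower in Ppy-rich than in beta (log2 −1.17, SE 0.110, adjusted p = 3.64e-08), in 4 of 4 libraries each and with either scaling. Delta barcodes also held less Chga than alpha barcodes (log2 −0.88, SE 0.110, adjusted p = 2.166e-06), as did Ppy-rich barcodes (log2 −0.54, SE 0.109, adjusted p = 0.0007948). The step from delta to Ppy-rich (log2 0.34, SE 0.110, adjusted p = 0.0252) turned with the scale and was −0.18 with total UMIs. It was −0.02 (adjusted p = 0.911) without a few Ppy-rich barcodes described with the hormone splits. Those barcodes were picked after their high Chga was seen and delta barcodes were not trimmed, so this value is no test of the step.

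Chgb had a different order, with delta barcodes at the top. Delta sums held 2644, 2947, 2030 and 2027 adjusted CPM (mean 2412 ± 460), and Ppy-rich sums 1355, 1404, 1048 and 1092 (mean 1225 ± 181). Beta sums held 897, 942, 1050 and 873 (mean 940 ± 78.5), and alpha sums 599, 593, 581 and 572 (mean 586 ± 12.0). The delta values lay above all others and the alpha values under all others, while the highest beta sum passed the lowest Ppy-rich sum. Chgb was 4.07-fold higher in delta than in alpha (log2 2.03, SE 0.0927, adjusted p = 1.469e-12) and 2.54-fold higher in delta than in beta (log2 1.34, SE 0.0908, adjusted p = 2.664e-10). It was 1.61-fold lower in alpha than in beta (log2 −0.68, SE 0.0892, adjusted p = 1.599e-06). Ppy-rich barcodes lay between delta (log2 −0.97, SE 0.0912, adjusted p = 1.07e-07) and beta (log2 0.37, SE 0.0902, adjusted p = 0.00193), the latter in 3 of 4 libraries. Each of these directions was the same with total UMIs.

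Scg2, the precursor of secretoneurin, was set apart by its low level in alpha barcodes. Beta sums held 4247, 4700, 4282 and 4605 adjusted CPM (mean 4458 ± 228) and alpha sums 1010, 1141, 1078 and 1015 (mean 1061 ± 61.7). Delta sums held 3402, 3288, 3622 and 3459 (mean 3443 ± 139), and Ppy-rich sums 2875, 2993, 3163 and 3045 (mean 3019 ± 120). No 2 classes overlapped, and the spread between libraries was small beside the gap to alpha. Scg2 was 4.204-fold lower in alpha than in beta (log2 −2.07, SE 0.0586, adjusted p = 3.996e-16), 3.25-fold higher in delta than in alpha (log2 1.70, SE 0.0581, adjusted p = 2.749e-14) and 2.85-fold higher in Ppy-rich than in alpha (log2 1.51, SE 0.0579, adjusted p = 7.895e-13). How much of the alpha signal is RNA from other cells was not tested. On the scale of total UMIs, endothelial barcodes, which should lack Scg2, held 148, 458, 385 and 271 CPM. Alpha barcodes held 1085, 1215, 1067 and 1025 CPM. In WT at 1 month insulin genes made up 2.30% of endothelial but 1.21% of alpha UMIs, at median depths of 3110 and 8370 UMIs. The endothelial CPM is thus no measure of such RNA in alpha barcodes. The beta and delta order depended on the scale, with delta lower by TMM (log2 −0.37, adjusted p = 1.572e-05) and higher with total UMIs (log2 0.46, adjusted p = 6.439e-06). Ppy-rich was called lower than delta (log2 −0.19, SE 0.0569, adjusted p = 0.0161), and without the older WT, the older CCR2-DTR or the younger WT library the adjusted p was 0.0528, 0.0547 or 0.118.

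Scg3, the granule membrane adaptor, was higher in beta barcodes than in the other 3 classes, which lay close together. Beta sums held 1026, 1117, 1133 and 1180 adjusted CPM (mean 1114 ± 64.5), above every other sum. Alpha sums held 613, 614, 788 and 731 (mean 686 ± 87.3), delta sums 589, 628, 629 and 563 (mean 603 ± 32.3) and Ppy-rich sums 646, 731, 791 and 709 (mean 719 ± 60.1), and these 3 ranges overlap. Scg3 was 1.63-fold lower in alpha than in beta (log2 −0.70, SE 0.0619, adjusted p = 6.568e-09) and 1.55-fold lower in Ppy-rich than in beta (log2 −0.63, SE 0.0634, adjusted p = 8.046e-08). Delta was 1.85-fold lower than beta (log2 −0.88, SE 0.0639, adjusted p = 6.898e-10), a call that was lost with total UMIs (log2 −0.06, adjusted p = 0.452). Among the others, the direction of Scg3 turned with the scale: delta against alpha was −0.18 by TMM and 0.20 with total UMIs, and Ppy-rich against delta was 0.25 by TMM and −0.27 with total UMIs. Ppy-rich and alpha barcodes were not separated (log2 0.07, SE 0.0634, adjusted p = 0.441).

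Scg5, the 7B2 chaperone, was higher in alpha and Ppy-rich barcodes than in beta and delta barcodes. Alpha sums held 1293, 1319, 1294 and 1348 adjusted CPM (mean 1314 ± 26.0) and Ppy-rich sums 1417, 1480, 1472 and 1476 (mean 1461 ± 29.7). Beta sums held 755, 852, 715 and 749 (mean 768 ± 59.0) and delta sums 709, 646, 695 and 781 (mean 708 ± 55.9). The 2 high classes did not overlap with the 2 low ones in any library. Scg5 was 1.71-fold higher in alpha than in beta (log2 0.77, SE 0.0592, adjusted p = 8.154e-10), 1.90-fold higher in Ppy-rich than in beta (log2 0.93, SE 0.0601, adjusted p = 1.68e-10) and 2.07-fold higher in Ppy-rich than in delta (log2 1.05, SE 0.0617, adjusted p = 1.851e-10). Delta held 1.86-fold less than alpha (log2 −0.89, SE 0.0608, adjusted p = 4.303e-10). Delta and beta were not separated by TMM (log2 −0.12, adjusted p = 0.109), and with total UMIs delta was called higher (log2 0.72, adjusted p = 3.103e-08). The small step from alpha to Ppy-rich (log2 0.15, SE 0.0596, adjusted p = 0.0566) passed the threshold under 5 of the other settings tried and was 0.02 with total UMIs.

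Vgf, with few UMIs throughout, was found mainly in alpha barcodes. Alpha sums held 785, 833, 146 and 250 Vgf UMIs, or 34.5, 38.1, 10.8 and 16.01 adjusted CPM (mean 24.8 ± 13.5). Beta sums held 259, 170, 34 and 80 UMIs, or 5.67, 4.86, 2.20 and 3.08 adjusted CPM (mean 3.96 ± 1.59), all under the lowest alpha sum. Ppy-rich sums held 10, 6, 8 and 3 UMIs and delta sums 4, 7, 1 and 0, which is too few to rank those 2 classes. A count of 0 in the delta sum of CCR2-DTR at 6 months allows up to 1.82 CPM. Vgf was 6.16-fold higher in alpha than in beta (log2 2.62, SE 0.126, adjusted p = 7.54e-13), in 4 of 4 libraries. The fitted difference of delta from alpha was −4.44 (SE 0.279, adjusted p = 1.293e-10) and that of Ppy-rich from alpha −3.14 (SE 0.234, adjusted p = 6.172e-09); with so few UMIs these are fitted values and no bounds. Delta was called lower than beta as well (log2 −1.82, SE 0.373, adjusted p = 0.0004005), on 12 UMIs in all delta sums.

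Barcodes that held both Gcg and Ppy, set outside the 4 classes, numbered 154, 95, 83 and 72. Their Vgf was 11.1, 9.88, 3.89 and 6.24 CPM, from 9 to 22 UMIs per library. Those values lay between the CPM of alpha barcodes (37.0, 40.6, 10.7 and 16.2) and of Ppy-rich barcodes (3.60, 2.86, 2.23 and 1.252) in each library. Scg2 in these barcodes was 1826, 2166, 1719 and 1827 CPM, likewise between alpha (1085, 1215, 1067 and 1025) and Ppy-rich barcodes (2696, 3037, 2867 and 2752) in each library. How far these barcodes hold RNA of 2 cells was not tested.

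**Figure D2:**
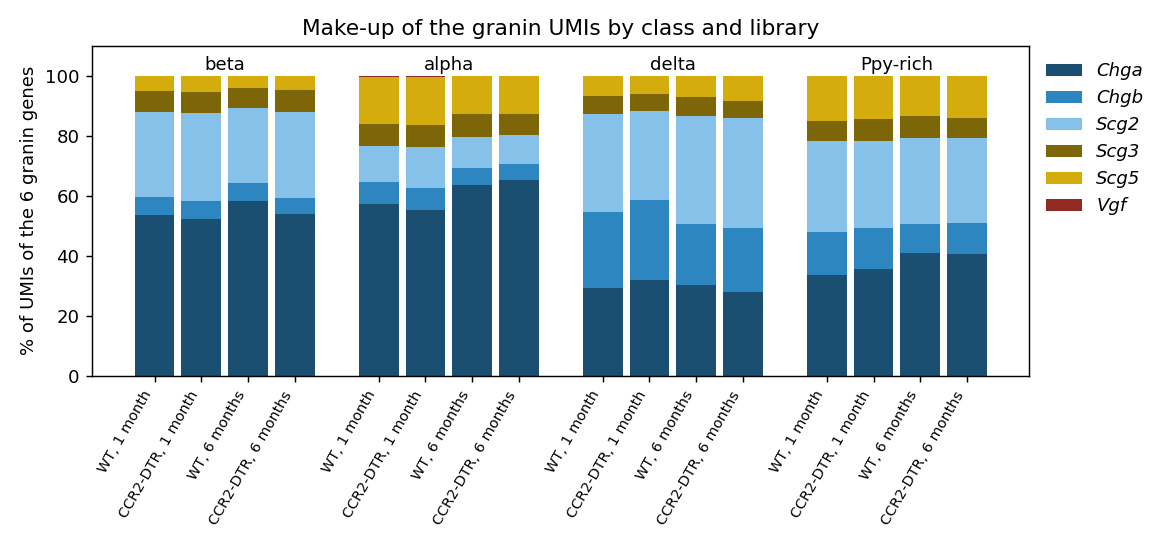
Share of each gene among the UMIs of the 6 granin genes (percent, stacked to 100) in each class and library. Chga makes up 52.3% to 65.4% of granin UMIs in beta and alpha barcodes and 28% to 41.0% in delta and Ppy-rich barcodes, where Chgb takes more.

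The summed granins were higher in beta barcodes than in the other classes on the TMM scale, at 14980 to 17180 adjusted CPM against 8292 to 10640 in alpha, 9486 to 11040 in delta and 9504 to 10980 in Ppy-rich sums. On the scale of total UMIs the order was another, with every delta sum above 3 of the 4 beta sums. They made up 1.06% to 1.32% of all UMIs in beta, 0.883% to 1.07% in alpha, 1.31% to 1.46% in delta and 0.891% to 1.04% in Ppy-rich barcodes. Shares among granins are of captured UMIs and were not scaled by transcript length, so they compare classes, not the levels of different genes. Chga gave 52.3% to 58.2% of granin UMIs in beta, 55.3% to 65.4% in alpha, 28% to 32.0% in delta and 33.7% to 41.0% in Ppy-rich barcodes. Chgb gave 20.3% to 26.7% in delta and 5.38% to 7.19% in alpha barcodes. Scg5 gave 12.5% to 15.9% in alpha and 4.16% to 5.34% in beta barcodes. In the plot of the make-up of granin UMIs the Chgb shares separate delta from the other classes and the Scg2 shares separate alpha, while the Chga shares of beta and alpha overlap.

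Other genes of the dense-core granule, a list of 22 of which 21 were tested, were called in both directions too. Calls both ways were common over all genes, so the shares of all genes called higher and lower stand beside the counts. In alpha against beta 10 were higher (all genes 31.7%) and 8 lower (32.2%), and the median log2 was 0.16 (all genes tested 0.01). Gnas, which encodes the stimulatory G protein subunit and the granule protein NESP55, was the highest at 2.46 (4646 against 850 adjusted CPM), and Sytl4, the granule docking protein granuphilin, the lowest at −4.98. Delta against beta gave 5 higher (26.1%) and 14 lower (27.3%), with a median of −0.36 (all genes −0.01), Gnas at 1.40 and Sytl4 at −4.64. Ppy-rich against beta gave 6 higher and 9 lower (median 0.06, all genes −0.01), again between Gnas at 1.26 and Sytl4 at −4.93. Against alpha, the extremes were Pcsk1, the convertase PC1/3, and Slc30a8, the granule zinc transporter. Delta against alpha gave 4 higher (21.1%) and 10 lower (20.4%), with a median of −0.12 (all genes −0.01), Pcsk1 at 2.21 and Slc30a8 at −4.06. Ppy-rich against alpha gave 4 higher (15.4%) and 10 lower (15.5%), with a median of −0.19 (all genes −0.01), Pcsk1 at 2.09 and Slc30a8 at −3.23. Ppy-rich against delta gave 7 higher (14.2%) and 2 lower (14.8%), with a median of 0.04 (all genes −0.003). The extremes were Cadps, the priming factor CAPS, at 3.92 and Rab27a, a granule Rab protein, at −0.55. With total UMIs the higher and lower counts of the list, in the order of these comparisons, were 14 and 4, 14 and 4, 11 and 6, 10 and 8, 2 and 10, and 2 and 12. All genes shifted the same way: of those called with total UMIs 82.2%, 93.3%, 75.6%, 86.9%, 27.7% and 6.33% were higher. The 12 named folds had the same sign with either scaling.

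Across the 16 sums, different genes followed the different granins. Among 2310 genes with a mean of at least 50 CPM, the Pearson correlation of log2(CPM + 1) with Chga was highest for mt-Nd5 (0.87), Slc30a8 (0.87) and Glul (0.87). For Chgb the nearest were Cdh2 (0.97), Nudt4 (0.97) and Gap43 (0.96), of which Gap43 had a mean of 190 CPM in delta and 0.609 to 8.90 in the other classes. For Scg2 they were S100a10 (0.98), Myo10 (0.96) and Cd164 (0.96), and for Scg3 Selenot (0.88) and Atp6ap2 (0.87). For Scg5 they were Ikbip, Ctsz and Sdhd (0.98, 0.98 and 0.97), and for Vgf Slc3a2 and Cpe (0.96 and 0.91). Among the granins themselves Chgb and Scg2 had the highest correlation (0.71) and Scg2 and Vgf the lowest (−0.88). The sums share libraries, class gates and total UMIs, so these values describe the 16 sums only.

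Granins also varied from barcode to barcode within a class. With each barcode thinned to 2000 UMIs of genes other than hormones, the variance of Chga over its mean was 5.33 to 9.91 in beta and 2.52 to 3.41 in alpha barcodes, where a value of 1.0 is counting noise alone. This measure rises with the mean, so it is not compared between genes. Mean Chga counts were 25.8 to 33.8 in beta and 14.3 to 20.8 in alpha barcodes, so it does not rank those classes either. In delta barcodes the Chga value was 3.99 to 5.71 at lower means of 9.09 to 12.0. In Ppy-rich barcodes the Chga value was 6.67 and 5.96 at 1 month, and 32.1 (WT) and 25.2 (CCR2-DTR) at 6 months. The median barcode did not share in that: it held 9 and 10 Chga UMIs at 1 month and 8 and 8 at 6 months. Mean counts were 10.1 and 11.9 in the younger and 13.3 and 13.6 in the older libraries, so mean and median went opposite ways.

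Ppy-rich barcodes with much Iapp, the gene of amylin, held more Chga than the rest. Ppy-rich barcodes with Iapp at or above 2% of UMIs numbered 10, 15, 8 and 7, a limit chosen after the Chga values were seen. As CPM over UMIs outside the 8 hormone genes, they held 17280, 15910, 50120 and 43600 Chga UMIs. The remaining Ppy-rich barcodes held 4678, 5451, 4589 and 4963, a far narrower range. In WT at 6 months 8 of 176 barcodes held 6142 of the 14660 Chga UMIs of the class (41.9%), and in CCR2-DTR at 6 months 7 of 120 held 33.7%. Their median doublet scores were 0.0349, 0.0371, 0.0947 and 0.141, against 0.0109, 0.0215, 0.0186 and 0.0473 in the rest. Their median mitochondrial shares were 5.97%, 6.29%, 6.21% and 9.15% against 4.38%, 4.64%, 3.52% and 3.65%, and the part of either measure was not tested. Chgb was higher in them as well, at 4892, 5074, 3428 and 2928 against 2072, 2153, 1610 and 1720 CPM over UMIs outside hormone genes. Without them Chga in Ppy-rich against beta was −1.53 and in Ppy-rich against alpha −0.92 on the log2 scale.

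**Figure D3:**
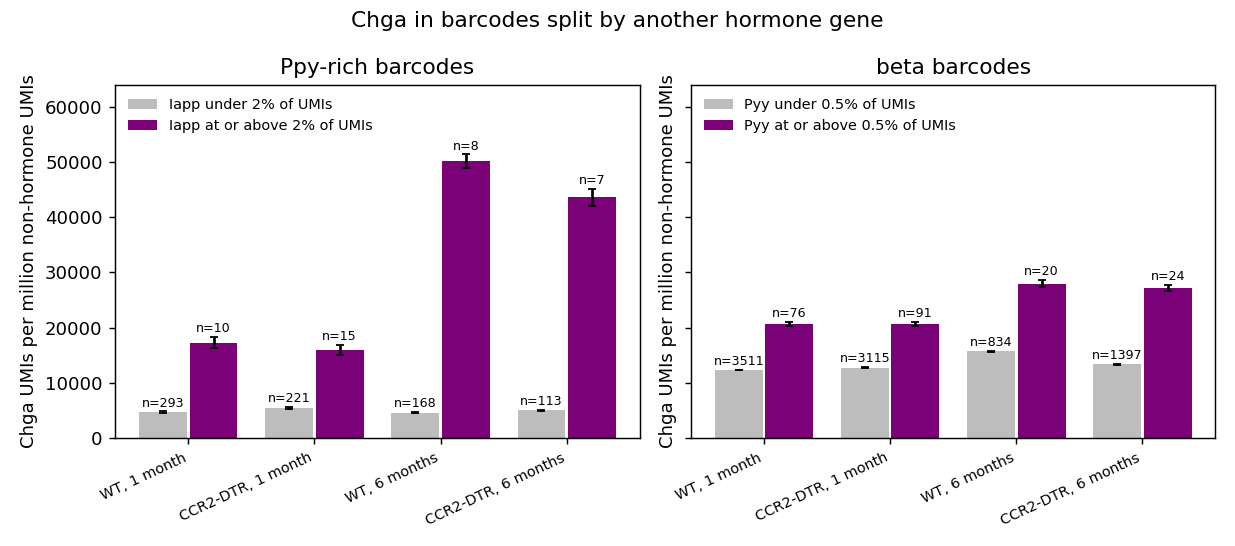
Chga CPM over UMIs outside 8 hormone genes (linear axis from 0), in Ppy-rich barcodes split at 2% Iapp and in beta barcodes split at 0.5% Pyy, per library. Error bars are exact 95% Poisson intervals and n is the number of barcodes. Iapp-rich barcodes reach 50120 and 43600 at 6 months beside 4589 and 4963 in the other Ppy-rich barcodes.

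A second split, by Pyy (peptide YY) at or above 0.5% of UMIs in beta barcodes, also went with Chga. It was likewise chosen after the values were seen and took 76, 91, 20 and 24 barcodes. They held 20690, 20590, 27960 and 27160 Chga CPM over UMIs outside hormone genes, against 12280, 12760, 15710 and 13340 in the other beta barcodes. Chgb was 2569, 2628, 2678 and 2523 against 1362, 1429, 1659 and 1349. Scg2 did not follow: it was 5978, 6237, 6238 and 6012 against 6584, 7334, 6925 and 7252, lower in all 4 libraries. Median doublet scores were 0.108, 0.0678, 0.0713 and 0.0942 against 0.0510, 0.0481, 0.0377 and 0.0514, and their part was not tested. Barcodes with at least 40000 Chga CPM over UMIs outside hormone genes, also a limit chosen after the values were seen, numbered 6, 2, 17 and 10 in beta, 1, 0, 7 and 4 in Ppy-rich and 0 in all alpha and delta sums.

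Granins were also read against the insulin share of beta barcodes, in bins of 20% to under 35%, 35% to under 50% and 50% to under 65%. Scg2 as CPM over UMIs outside hormone genes was lowest in the first bin in 4 of 4 libraries, at 5777, 6396, 5326 and 5273, against 6508, 7529, 7201 and 7327 in the second. Scg5 was higher in each next bin in 4 of 4 libraries. At 1 month it was 667, 1080 and 1340 in WT and 974, 1395 and 1618 in CCR2-DTR. At 6 months the steps were smaller, with 1058, 1127 and 1230 in WT and 1109, 1123 and 1298 in CCR2-DTR. The counting intervals of the first 2 bins overlap there. They were 986 to 1135 and 1100 to 1154 in WT, and 1041 to 1180 and 1103 to 1144 in CCR2-DTR. Chga was 10050, 11580 and 13820 over the bins in WT and 11350, 13240 and 15190 in CCR2-DTR at 1 month, higher in each next bin. At 6 months it was 21110, 15080 and 16980 in WT and 14130, 13020 and 14660 in CCR2-DTR, with no such order. Barcodes of the first bin had median depths of 1464 and 1568 UMIs at 6 months against 27620 and 26540 in the second, so depth moved with the bins there and its part was not tested. At 1 month those medians were 11870 and 10130 against 15920 and 14290.

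Libraries were compared within a class as ratios of CPM, without a test, since each group had 1 library. The 95% intervals are exact, cover counting error only and leave out the differences between animals and between preparations. A gene was counted past 1.5-fold where it held at least 50 CPM in 1 of the libraries and 10 UMIs over both. Vgf stayed under that level in all 16 comparisons, so 5 granins were counted. None of the 5 reached 1.5-fold in any of the 16. The shares of all genes past it in beta barcodes were 1.32% and 0.753% between genotypes at 1 and 6 months, and 3.39% (WT) and 9.17% (CCR2-DTR) between ages. In the same order they were 1.71%, 1.12%, 2.7% and 4.08% in alpha, 2.25%, 2.3%, 5.93% and 7.93% in delta and 1.96%, 0.526%, 3.51% and 9.0% in Ppy-rich barcodes.

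**Figure D4:**
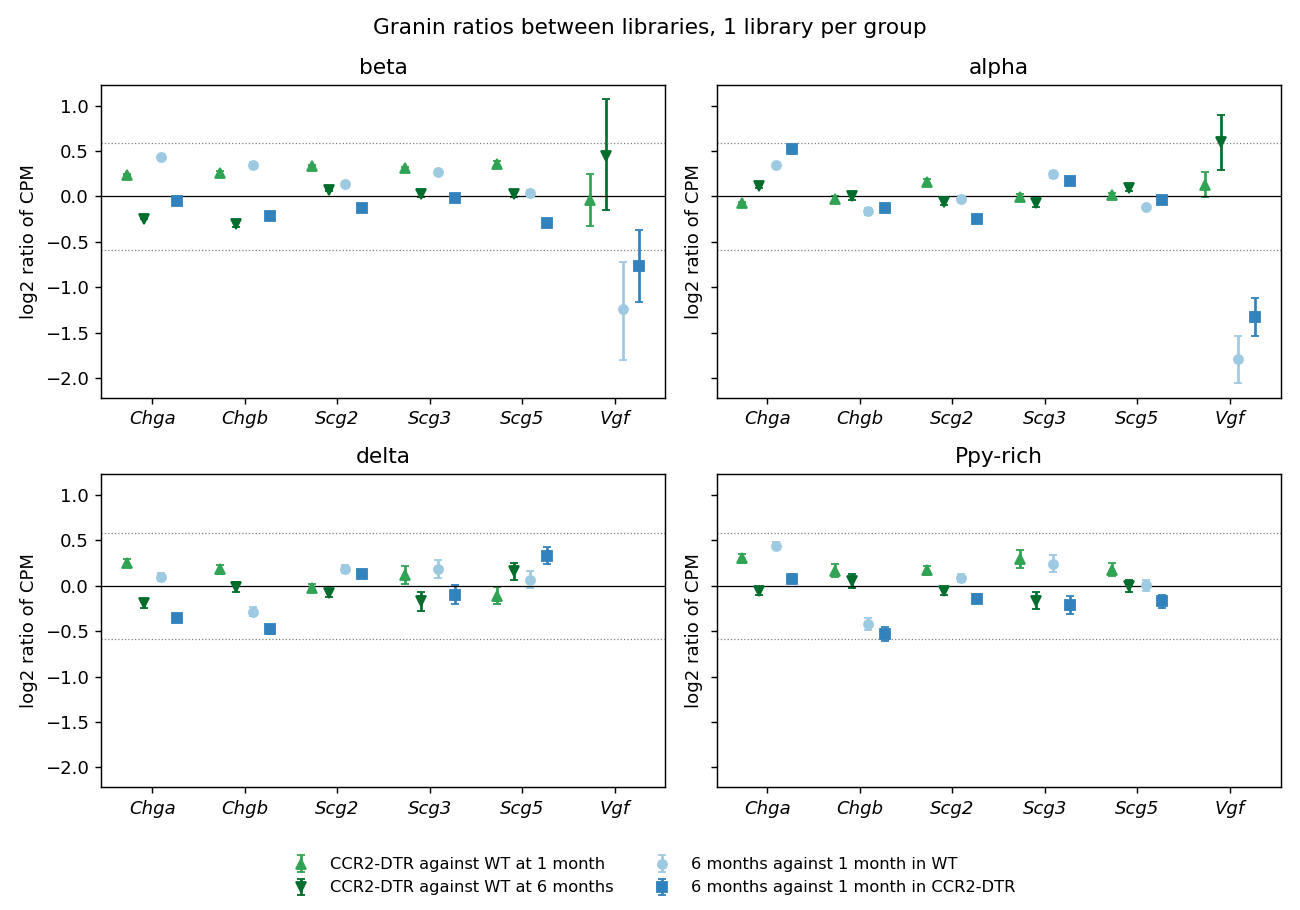
Log2 ratio of CPM between libraries for each granin in each class, with 95% counting intervals; dotted lines mark 1.5-fold either way. The other 5 granins lie within the dotted lines in all 16 comparisons, and Vgf in alpha barcodes lies at −1.79 and −1.33 at 6 against 1 month; Vgf is not drawn in delta and Ppy-rich barcodes.

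By CPM, alpha barcodes differed with age in the same direction in both genotypes for Vgf, Chga, Scg3, Chgb and Scg5, with intervals that leave out 1. Scg2 was at 0.983 in WT, where the interval (0.963 to 1.004) holds 1, and at 0.844 in CCR2-DTR (0.827 to 0.861). Relative to the median gene, on the log2 scale, Scg2 was at 0.09 in WT and −0.17 in CCR2-DTR. Vgf went from 37.0 to 10.7 CPM in WT (ratio 0.289, interval 0.240 to 0.345) and from 40.6 to 16.2 CPM in CCR2-DTR (0.399, 0.345 to 0.460), lower at 6 months in both. It was at a similar level in CCR2-DTR and WT at 1 month (1.095, 0.992 to 1.21) and higher in CCR2-DTR at 6 months (1.51, 1.23 to 1.87). Alpha barcodes were deeper at 6 months (medians 20220 and 18020 UMIs) than at 1 month (8370 and 8112). Thinned to 2000 UMIs, 6.82% and 6.91% of alpha barcodes held a Vgf UMI at 1 month and 1.246% and 2.38% at 6 months, against 23.9%, 23.4%, 17.9% and 22.1% unthinned. The thinning left out 34, 41, 0 and 2 barcodes as too shallow. Endothelial barcodes, thinned in the same way, held a Vgf UMI in 0.193%, 0.362%, 0% and 0%, where 0 of 286 and 0 of 318 barcodes allow up to 1.05% and 0.943% (median depths 3110, 4034, 5882 and 5788 UMIs). The highest count in 1 alpha barcode was 6, 7, 5 and 6 Vgf UMIs.

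Chga in alpha barcodes was higher at 6 months in both genotypes. It went from 5137 to 6507 CPM in WT (1.27, 1.26 to 1.28) and from 4883 to 7028 CPM in CCR2-DTR (1.44, 1.43 to 1.45), while the median gene moved by −0.11 and −0.08 on the log2 scale. Relative to the median gene the CCR2-DTR difference was 0.60 on the log2 scale, past 1.5-fold. Scg3 was higher as well, by 1.18-fold in WT (1.15 to 1.21) and 1.13-fold in CCR2-DTR (1.101 to 1.16). Chgb was lower in both by CPM (0.892 and 0.916), and Scg5 too (0.922 and 0.970). Relative to the median gene, on the log2 scale, Chgb was at −0.05 in both genotypes. Scg5 was then at −0.007 in WT and 0.03 in CCR2-DTR, so its lower CPM was shared by the median gene. Between genotypes the 5 granins of alpha barcodes lay between 0.948 and 1.12 at both ages.

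In delta barcodes Chgb was lower at 6 months, at 2822 against 3444 CPM in WT (0.819, 0.791 to 0.848) and 2798 against 3904 CPM in CCR2-DTR (0.717, 0.691 to 0.743). Ppy-rich barcodes gave the same direction for Chgb, with 950 against 1271 CPM in WT (0.747, 0.713 to 0.784) and 987 against 1425 CPM in CCR2-DTR (0.693, 0.656 to 0.731). The median gene moved by 0.06 and 0.02 in delta and by −0.08 and −0.20 in Ppy-rich barcodes. By CPM, Chgb thus stood lower in the older libraries in 3 classes, alpha, delta and Ppy-rich, in both genotypes. Relative to the median gene, on the log2 scale, it was at −0.35 (WT) and −0.50 (CCR2-DTR) in delta barcodes. In Ppy-rich barcodes it was then at −0.34 and −0.33, but in alpha barcodes at only −0.05 in both genotypes. Delta barcodes of CCR2-DTR also had less Chga (0.783, 0.759 to 0.809) and more Scg5 (1.26, 1.18 to 1.35) at 6 months, where WT had ratios of 1.07 and 1.05. Scg2 in delta barcodes was 1.14-fold (WT) and 1.096-fold (CCR2-DTR) higher.

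Chga in Ppy-rich barcodes turned on the Iapp-rich barcodes. With all barcodes it was 1.36-fold higher at 6 months in WT (1.32 to 1.40) and 1.06-fold higher in CCR2-DTR (1.02 to 1.09). Without the 7 to 15 Iapp-rich barcodes of a library the ratios were 0.920 (0.891 to 0.949) and 0.808 (0.781 to 0.837), lower at 6 months in both. The Iapp limit was chosen after the Chga values were seen. At 6 months those barcodes held 41.9% (WT) and 33.7% (CCR2-DTR) of the Chga UMIs of the class. Leaving them out was thus bound to lower Chga there, and these ratios are no test of a difference with age. The Chgb ratios without the Iapp-rich barcodes were 0.729 and 0.709, close to those with them. Between genotypes at 1 month, 5 of 5 granins were higher in CCR2-DTR (1.12 to 1.23), where the median gene stood at 0.11 on the log2 scale, and at 6 months they lay between 0.893 and 1.04.

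In beta barcodes the granins and the median gene were both higher in CCR2-DTR at 1 month. The 5 granins were 1.18-fold to 1.29-fold higher in CCR2-DTR than in WT, while the median gene stood at 0.20 on the log2 scale and the granins' median at 0.31. Hormone genes made up 54.2% of beta UMIs in WT and 48.0% in CCR2-DTR at 1 month, and their part in the shift was not tested. At 6 months Chga was lower in CCR2-DTR (6507 against 7709 CPM, ratio 0.844, 0.839 to 0.850) and Chgb too (656 against 810 CPM, 0.811, 0.794 to 0.827), with Scg2, Scg3 and Scg5 between 1.01 and 1.05. With age in WT, Chga was 1.35-fold higher (1.34 to 1.36) and Chgb 1.27-fold higher (interval up to 1.30), and in CCR2-DTR they were at 0.965 and 0.863. Of the beta Chga UMIs of WT at 6 months 5.62% came from the 20 Pyy-rich barcodes. Vgf in beta barcodes was lower at 6 months in WT (34 against 259 UMIs, ratio 0.422, 0.286 to 0.605) and in CCR2-DTR (80 against 170 UMIs, 0.590, 0.447 to 0.774), though the latter turned to 0.04 on the log2 scale when every barcode weighed the same.

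The other granule genes were counted past 1.5-fold between libraries in the same way. Of the 14 to 17 of the 22 listed genes that could be read in a comparison, 0 were past it in the 4 beta comparisons (all genes 0.753% to 9.17%). In the 4 alpha comparisons 0 were past it as well (1.12% to 4.08%). In delta barcodes, with 16 read, 1 was higher between genotypes at 1 month (all genes 2.25%) and 1 lower at 6 months (2.3%). With age 1 was higher in WT (5.93%), and 1 higher and 2 lower in CCR2-DTR (7.93%). In Ppy-rich barcodes the counts were 0 (1.96%), 1 lower (0.526%), 1 higher (3.51%) and 1 lower (9.0%) in the same order. With so few genes read, these counts are not ranked against the shares of all genes.

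Granin UMIs were also found in barcodes of cells that should not make them. They can be free RNA, and their source was not tested. Endothelial barcodes, gated on at least 3 of 8 markers such as Pecam1 and Cdh5, numbered 607, 562, 289 and 326 and held 520, 1581, 1286 and 1151 CPM of summed granins. With barcodes thinned to 2000 UMIs, 40.6%, 78.3%, 71.3% and 62.3% of them held a Chga UMI. Relative to insulin RNA, which endothelial cells do not make, these were 22.6, 37.3, 38.1 and 34.8 granin UMIs per 1000 insulin UMIs. The hormone-gated barcodes as 1 pool held 29.0, 42.7, 48.8 and 38, and beta barcodes 21.7, 31.2, 28.2 and 25.7. The endothelial values lay between those of beta barcodes and of the pool in every library, except that with insulin held under 5% the older CCR2-DTR library gave 38.9, above its pool. Mesenchymal barcodes gave 19.5, 30.8, 33.8 and 22.9 and macrophages 28.6, 30.4, 37.9 and 23.7. A granin level in these cells cannot be told from free RNA.

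**Figure D5:**
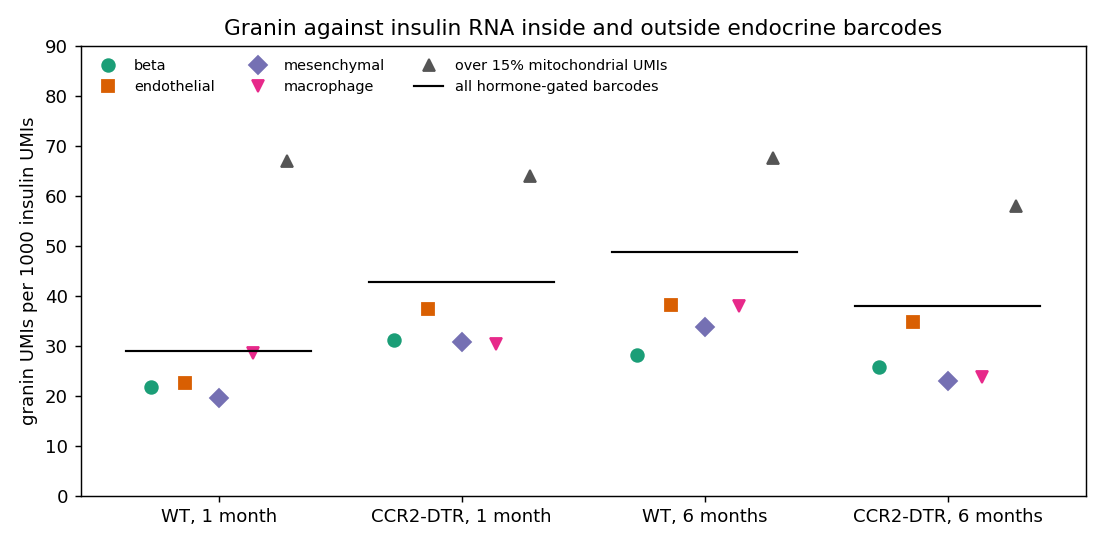
UMIs of the 6 granin genes per 1000 insulin UMIs in each library, for beta, endothelial, mesenchymal and macrophage barcodes and for barcodes with over 15% mitochondrial UMIs; lines mark all hormone-gated barcodes together. Endothelial barcodes (22.6 to 38.1) lie under the line in every library and barcodes with many mitochondrial UMIs (57.9 to 67.5) above it.

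In Schwann-type barcodes the granins stood in other ratios to insulin than in the pool, on small counts. These barcodes numbered 13, 25, 12 and 7 and held 10, 26, 39 and 5 Scg3 UMIs, or 9.19, 6.06, 15.5 and 4.73 per 1000 insulin UMIs, against 2.00, 3.00, 3.38 and 2.72 in the pool. Chgb was above the pool in all 4 libraries too (3.68, 4.43, 10.8 and 2.84 against 2.02, 3.09, 3.51 and 2.33), from 3 to 27 UMIs. So was Scg2 (9.19, 12.4, 31.1 and 9.45 against 7.30, 11.04, 10.6 and 9.07), though by little outside the older WT library. In that library, with barcodes thinned as for the endothelial class, 1 of 11 Schwann-type barcodes held Scg2, 2 held Chgb and 6 held Scg3. Chga was below the pool in all 4 (9.19, 17.3, 16.3 and 13.2 against 15.4, 22.1, 27.6 and 21.1). The same held for Chga in endothelial barcodes (10.78, 19.1, 19.35 and 18.35), so low Chga did not set Schwann-type barcodes apart. Barcodes with over 15% mitochondrial UMIs held 67.0, 64.1, 67.5 and 57.9 granin UMIs per 1000 insulin UMIs, above the pool in 4 of 4 libraries. In WT at 1 month their summed granins were 10680 CPM, beside 10620 in beta barcodes. Insulin made up 15.9% of their UMIs and 49.0% of beta UMIs, so the higher ratio there went with less insulin. Barcodes of 500 to under 1000 UMIs held 35.6, 27.8, 26.7 and 22.8.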

How the data were processed

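Islet cells were profiled with 10x Chromium single-cell RNA sequencing in 4 libraries, 1 per group. The values in the deposited matrices are raw counts, 1 per captured UMI, which the authors obtained with Cell Ranger 5.0.1 on mm10, per the submitters' processing notes; the sources used here do not state annotation release, chemistry or intron counting. The deposited barcode and gene lists carry no measurement, and 0 per-sample columns were left unused.

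Barcodes were kept with at least 1000 UMIs, 500 genes, at most 15% mitochondrial UMIs and a Scrublet score of at most 0.25 (scanpy 1.11.5). Beta barcodes had at least 20% insulin UMIs (Ins1 and Ins2), and alpha, delta and Ppy-rich barcodes at least 5% Gcg, Sst or Ppy, with other hormones under 2% and insulin under 10% outside beta. UMI counts were summed to 16 sums and tested with edgeR 4.0.16 (R 4.3.3; TMM, filterByExpr, library as block, threshold 0.05 after Benjamini-Hochberg adjustment). The block pairs classes of the same library, which come from the same animals. Library comparisons are CPM ratios with exact conditional Poisson 95% intervals and no test. Alternatives included DESeq2 1.42.0, other scalings, gates and filters, and leaving out each library. On simulated counts for alpha against beta (12820 genes) the test called 100% of 200 genes changed 2-fold and 0% of the unchanged. The simulated classes otherwise had the same composition, and the changes were balanced up and down. The simulation thus cannot show how the test does where hormone shares and most genes differ between classes, as here.

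All 6 granins were named. Of the granule list, the highest and lowest called fold per comparison were named, and up to 3 like genes per granin; some items that these rules name are not reported here. Members, lists and the splits by Iapp and Pyy were chosen with earlier results of these data known. Python 3.11.15, numpy 2.4.6, scipy 1.17.1, pandas 2.3.3 and matplotlib 3.10.9 were used. PCR duplicates are collapsed by UMIs, and intervals and limits of a count of 0 (3 counts) cover counting error only.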

Additional observations from a re-analysis of the deposited data

Results flagged for a closer look

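Some granin ratios lay on opposite sides of 1 in the 2 genotypes or at the 2 ages, with counting intervals that leave out 1 on both sides. With 1 library per group the difference between those ratios was not tested. In beta barcodes Chga in CCR2-DTR against WT was 1.18 at 1 month and 0.844 at 6 months, and Chgb was 1.196 and 0.811. Chgb in beta barcodes at 6 months against 1 month was 1.27 in WT and 0.863 in CCR2-DTR. In delta barcodes Chga in CCR2-DTR against WT was 1.19 at 1 month and 0.874 at 6 months. In Ppy-rich barcodes Scg3 in CCR2-DTR against WT was 1.23 at 1 month and 0.893 at 6 months, and its ratio of 6 months to 1 month was 1.19 in WT and 0.863 in CCR2-DTR. Part of these differences was shared by the median gene of the comparison. Less the median gene, on the log2 scale, Chga and Chgb in beta between genotypes at 1 month were 0.04 and 0.06, and at 6 months −0.23 and −0.29. Chgb in beta with age was then 0.30 in WT and −0.07 in CCR2-DTR, and Scg3 in Ppy-rich with age 0.32 and −0.02. Chga in delta between genotypes was 0.23 and −0.18, and Scg3 in Ppy-rich between genotypes 0.18 and −0.16.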

How the results depend on the processing

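Class directions turned with total UMIs as the only scaling, an alternative chosen after seeing the data, for Scg2 in delta against beta (0.46), Scg3 in delta against alpha (0.20), and Chga (−0.18) and Scg3 (−0.27) in Ppy-rich against delta. Without Ppy-rich barcodes at 2% Iapp or more, also chosen after seeing the data, Chga in Ppy-rich against delta turned to −0.0241. That contrast was the least stable: of 6 granins, 2 were called with no replicate block, 3 with stricter gates, and 3 to 6 when 1 library was left out (3 without WT or without CCR2-DTR at 6 months). Scg3 in delta against alpha lost its call with no replicate block (adjusted p = 0.124), with stricter gates (0.266) and without either 6-month library (0.156 and 0.2147). Leaving out the block moved no other contrast's count of granins called by over 1.5 times. With a fold limit 25% above 1 in place of 1.5-fold, granins past it numbered 2 of 5 in beta between genotypes at 1 month (all genes 17.4%), 2 in beta with age in WT (17.9%), 1 in alpha with age in WT (13.3%) and in CCR2-DTR (18.5%), 3 in delta with age in CCR2-DTR (27.1%), and 2 (WT, 19.3%) and 1 (CCR2-DTR, 37.6%) in Ppy-rich with age. At 1.5-fold, 1 passed in alpha with age in CCR2-DTR relative to the median gene, and 1 in Ppy-rich with age in CCR2-DTR with looser gates or thinned to 2000 UMIs. Vgf in beta with age in CCR2-DTR turned to 0.0408 on the log2 scale with every barcode weighing the same. Endothelial granins per 1000 insulin UMIs were 42.4 (CCR2-DTR, 1 month), 41.0 (WT, 6 months) and 38.9 (CCR2-DTR, 6 months) with insulin under 5%, 38.4 with doublets kept (CCR2-DTR, 1 month) and 26.8 with at least 4 markers (CCR2-DTR, 6 months). The causes were not tested. Depth limits Vgf in delta and Ppy-rich barcodes, and 1 pooled library per group leaves the spread between animals unmeasured.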
